A study of Homo sapiens with 6 samples.

Results

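The RNAs described here are long noncoding RNAs and the host transcripts of small nucleolar RNAs (snoRNAs) and microRNAs in MM1.S cells, an established human line of multiple myeloma, a cancer of plasma cells. They were chosen by name: symbols that begin with LINC or SNHG and a digit, microRNA host symbols (MIR...HG), symbols that end in -AS1, and GAS5, MALAT1, NEAT1 and PVT1. A mean normalised read count of 50 or more was also required in both of the authors' deposited tables. Of 33095 genes, 1311 carried such a symbol and 269 of these reached the mean, while 1042 lay under it and are not described further. The 269 RNAs comprise 21 snoRNA hosts, 9 microRNA hosts, 143 -AS1 RNAs, 93 LINC RNAs, and MALAT1, NEAT1 and PVT1. The name and the mean chose them and are not results. Just inside the limit were TAPT1-AS1 at 50.5, LINC01852 at 50.7 and LINC00954 at 51.1 normalised reads in the authors' deposited tables. Just outside were MIR503HG at 49.4, USP3-AS1 at 48.8 and SLCO4A1-AS1 at 47.2.

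The study asked what changes in the transcriptome when IRF3, a transcription factor of the innate antiviral response, is depleted. There were 3 arms, in which lentivirus delivered an anti-IRF3 shRNA 1, an anti-IRF3 shRNA 2 or a scramble control hairpin, with 2 libraries of poly(A)-selected RNA each. Every arm was MM1.S in the same medium with fetal bovine serum, so the findings concern a single cell line. The sources used here do not give the time after transduction or any selection of transduced cells. Nothing in the labels says that the 2 libraries of an arm are separate cultures, and p-values may therefore reflect technical spread alone.

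The authors' deposited tables hold fold changes of each hairpin against scramble and no values of single libraries, so no standard deviation and no depth per library can be given. IRF3 itself had a log2 fold change of -1.53 ± 0.10 (SE; DESeq2 adjusted p = 8.45e-46) with shRNA 1 and of -0.18 ± 0.10 (DESeq2 adjusted p = 0.181) with shRNA 2 in the authors' deposited tables. A fall of the targeted mRNA was thus not shown in the libraries labelled shRNA 2, and "with shRNA 2" below always means the libraries labelled so. Of 9 plasma cell markers, 9 had means between 1665 and 31450, while 0 of 4 B cell, 1 of 4 myeloid and 0 of 4 epithelial or fibroblast markers reached 50. Among 3 T or NK cell markers found in the tables, NCAM1 at 116 and CD3E at 57.1 reached it.

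Most snoRNAs guide chemical modification of ribosomal RNA, ribose methylation in the case of C/D box snoRNAs (SNORD) and pseudouridylation in the case of H/ACA box snoRNAs (SNORA). They are cut out of introns of host transcripts, and the spliced remainder of a host such as GAS5 is exported, bound by ribosomes and degraded by nonsense-mediated decay while translation is active. Many hosts start with a C followed by pyrimidines, the terminal oligopyrimidine (TOP) start also found in ribosomal protein mRNAs. MicroRNA hosts are the precursors from which microRNA hairpins are cut in the nucleus, and antisense RNAs run opposite to a coding gene whose name they carry. MALAT1 belongs to nuclear speckles and NEAT1 is the scaffold of paraspeckles.

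The label fits the annotation for most of these RNAs. In GENCODE 29 (GRCh38), 112 of the 269 are antisense, 95 lincRNA and 42 processed transcripts, while 10 are listed as pseudogenes and 4 as protein-coding (SNHG32, LINC00672, LINC02693 and LINC02694). RefSeq places at least 1 snoRNA inside 19 of the 21 snoRNA hosts and inside 7 of the other RNAs. SNHG20 and SNHG21 held none there. GAS5 (chromosome 1, 173863900 to 173868882, minus strand, GRCh38) has 11 snoRNAs within its body, SNHG1 has 9, SNHG17 has 5 and SNHG12 has 4.

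A start with C and at least 4 further pyrimidines occurred in at least 1 annotated transcript of 13 of the 21 snoRNA hosts (61.9%), against 17.0% of the 12977 genes with a mean of 50 or more. A gene with more annotated transcripts can meet this more easily, and SNHG29 has 30 and GAS5 29. The numbers of transcripts were not matched in this comparison. The first 30 bases of such transcripts are shown for 5 hosts that were higher with at least 1 hairpin and for 3 that passed in neither comparison, with the pyrimidine tract in capitals (GENCODE 29, GRCh38, 5′ to 3′). The tract alone did not separate the called hosts from the others. Each sequence comes from the annotated transcript with the longest tract, and other transcripts of a host may lack it. Such a start occurs in 6 of 29 GAS5 transcripts and in 1 of 25 SNHG1 transcripts.
GAS5: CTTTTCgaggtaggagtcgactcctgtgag
SNHG29: CTCCTTTTgtgaggattgggatattccgac
SNHG8: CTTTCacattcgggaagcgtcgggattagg
SNHG5: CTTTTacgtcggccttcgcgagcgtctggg
SNHG19: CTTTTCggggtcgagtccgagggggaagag
SNHG1: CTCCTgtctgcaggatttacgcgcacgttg
SNHG16: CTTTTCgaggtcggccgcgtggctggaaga
SNHG12: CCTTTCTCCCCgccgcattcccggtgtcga

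The definition depends on the annotated first base. At the RefSeq start (GRCh38.p14), the tract was 1 base for SNHG8 and 3 for SNHG1, and none was recorded for GAS5, SNHG29 and SNHG16. SNHG5, SNHG19 and SNHG12 had RefSeq tracts of 5, 6 and 11 bases. Conversely, SNHG32 had no such start among its GENCODE transcripts, but its RefSeq start has a tract of 6 bases.
SNHG32: CTTTTTgcgaagtgggctcgtgggttggca

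For the microRNA hosts that were called, the mature microRNAs they encode are shown from RefSeq (GRCh38.p14), with the seed, bases 2 to 8, in capitals. The seed is the stretch by which a microRNA pairs with its target mRNAs. The mature microRNAs themselves are too short for poly(A)-selected libraries and were not measured.
hsa-miR-210-3p: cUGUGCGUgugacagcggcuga
hsa-miR-663a: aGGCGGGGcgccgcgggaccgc
hsa-miR-34a-5p: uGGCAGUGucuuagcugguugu
hsa-miR-4435: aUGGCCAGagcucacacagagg
hsa-miR-17-5p: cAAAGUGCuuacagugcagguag
hsa-miR-20a-5p: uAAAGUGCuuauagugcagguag
hsa-miR-18a-5p: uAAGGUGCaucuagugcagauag
hsa-miR-19a-3p: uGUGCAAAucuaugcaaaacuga
hsa-miR-19b-3p: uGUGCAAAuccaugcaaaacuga
hsa-miR-92a-3p: uAUUGCACuugucccggccugu
The last 6 come from MIR17HG. Among them miR-17-5p and miR-20a-5p share the seed AAAGUGC, and miR-19a-3p and miR-19b-3p share GUGCAAA.

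With shRNA 1, 29 of the 269 noncoding RNAs were higher and 8 lower than in scramble at a DESeq2 adjusted p below 0.05, per the authors' deposited table. Among all genes with an adjusted p in that comparison, 24.6% were called, 9.8% higher and 14.8% lower. At a mean of 50 or more, 10.6% of 12977 genes were higher and 16.4% lower, so the 29 higher RNAs are a share near the background and the 8 lower ones a smaller share (2.97%). In the authors' deposited table for shRNA 2, 61 were higher and 13 lower. The background there was 29.0% of all genes with an adjusted p, 10.9% higher and 18.1% lower, and 13.3% higher and 23.1% lower at a mean of 50 or more. Of the noncoding RNAs, 22.7% were higher and 4.83% lower with shRNA 2. Their median log2 fold changes were 0.11 with shRNA 1 and 0.22 with shRNA 2, and those of all genes at that mean were -0.04 in both comparisons, computed from the authors' deposited tables. Both comparisons share the scramble libraries, so they are not independent of each other. In such bulk samples, fewer cells of a kind and less RNA per cell cannot be told apart.

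**Figure D1:**
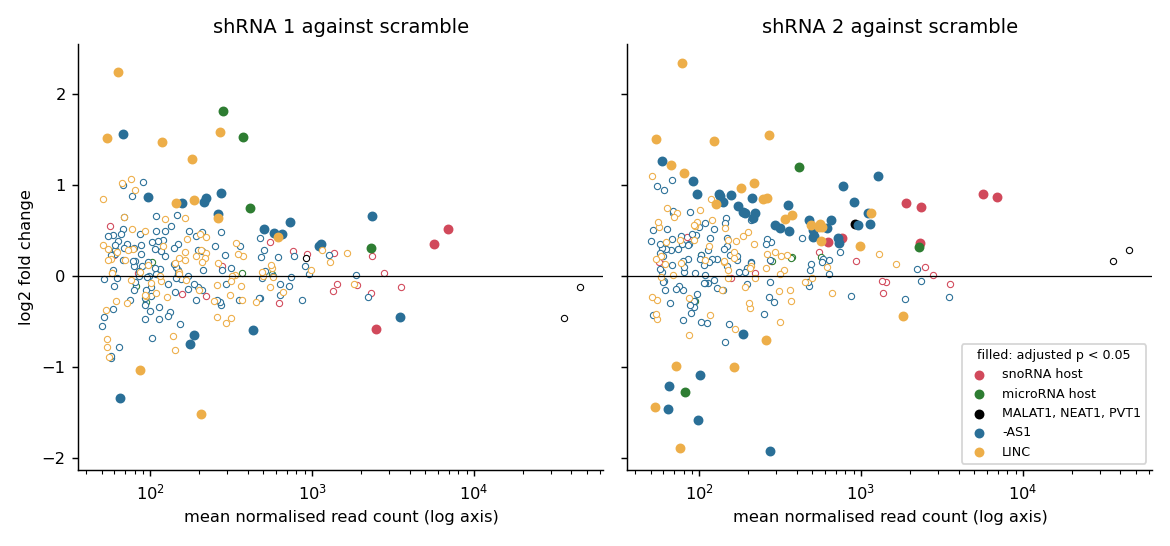
Log2 fold change against scramble (vertical axis) and mean normalised read count (horizontal log axis) of the 269 noncoding RNAs, with shRNA 1 on the left and shRNA 2 on the right. Filled points are called at a DESeq2 adjusted p below 0.05 in the authors' deposited tables (37 with shRNA 1, 74 with shRNA 2), and the abundant MALAT1 and NEAT1 at the right edge are open in both panels.

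The noncoding RNAs were less abundant than mRNAs, with a median mean of 153 normalised reads against 830 for 11394 protein-coding genes, which widens their SEs. The counts were therefore also taken within ranges of the mean, from the authors' deposited tables. From 50 to 200 normalised reads, 17 of 156 noncoding RNAs were higher (10.9%) and 10 lower (6.41%) with shRNA 2, against 10.6% and 14.5% of protein-coding genes, so the share of higher calls was near the background there. From 200 to 1000, 34 of 88 were higher and 2 lower with shRNA 2, against 10.2% and 24.8% of protein-coding genes. At 1000 and above, 10 of 25 were higher and 1 lower with shRNA 2, against 16.6% and 30.2% of protein-coding genes. With shRNA 1, 9 of 156 were higher and 4 lower in the lowest range, or 5.77% and 2.56%, against 7.09% and 5.99% of protein-coding genes. In the middle range 14 of 88 were higher and 2 lower with shRNA 1, against 7.32% and 17.0% of protein-coding genes. In the highest range 6 of 25 were higher and 2 lower with shRNA 1, against 16.0% and 23.7% of protein-coding genes. Among 777 other lncRNA genes, shRNA 2 gave 102 higher (13.1%) and 37 lower (4.76%), and shRNA 1 gave 47 higher (6.05%) and 26 lower (3.35%). Pooled over all means of 50 or more, their higher calls were thus at or under the background, and their lower calls were fewer than it. However, 547 of them lay from 50 to 200, where 7.50% were higher with shRNA 2. From 200 to 1000, 24.5% of 196 were higher and 6.63% lower with shRNA 2. At 1000 and above, 38.2% of 34 were higher and 11.8% lower with shRNA 2. The larger share of higher calls above a mean of 200 with shRNA 2 was thus not particular to the selected RNAs. With shRNA 1, 2.38% of the 547, 14.3% of the 196 and 17.6% of the 34 were higher. Lower with shRNA 1 were 1.28%, 7.65% and 11.8% in the same order. From 200 to 1000 with shRNA 1, 15.9% of the selected RNAs were higher, so that share was not particular to them either. Because the mean over all libraries was a condition, 33 of the 269 RNAs had a reconstructed mean under 50 in at least 1 arm. Without these, 26 RNAs were higher and 7 lower with shRNA 1, and 56 were higher and 6 lower with shRNA 2.

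**Figure D2:**
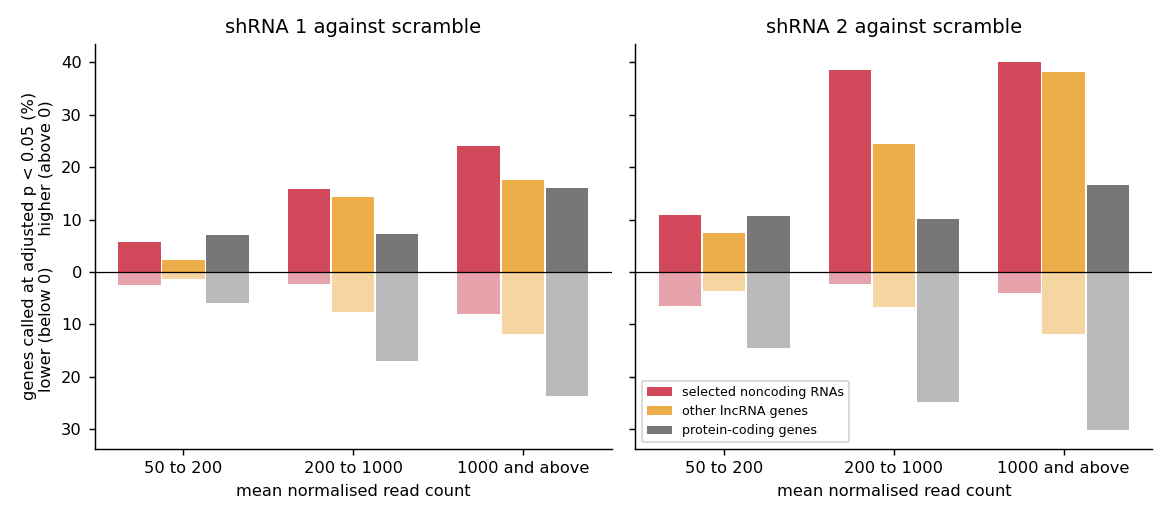
Share of genes (percent, vertical axis) called higher (above 0) or lower (below 0) at a DESeq2 adjusted p below 0.05, in 3 ranges of the mean normalised read count, with shRNA 1 on the left and shRNA 2 on the right. Red bars are the selected noncoding RNAs, yellow bars other lncRNA genes and grey bars protein-coding genes; from 200 to 1000 reads, 34 of 88 selected RNAs were higher with shRNA 2 and 2 were lower.

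The snoRNA hosts were among the most abundant of these RNAs. By the authors' deposited tables, 2 of the 21 rose with shRNA 1 and 1 fell, whereas 7 rose with shRNA 2 and 0 fell. The rises were 9.52% and 33.3%, against 10.6% and 13.3% of all genes with a mean of 50 or more. With shRNA 1 that share was near the background. The median log2 fold change of the 21 hosts was 0.03 with shRNA 1 and 0.16 with shRNA 2. Those that rose with shRNA 2 were GAS5, SNHG29, SNHG8, SNHG32, SNHG7, SNHG19 and SNHG5, and the remaining 14 did not pass there.

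GAS5, which carries 11 snoRNAs and is known for accumulating in growth-arrested cells, had reconstructed means of 5223 normalised reads with shRNA 1, 7625 with shRNA 2 and 4094 in scramble. The shRNA 2 mean was the highest and the scramble mean the lowest. The authors' deposited table for shRNA 1 gives a log2 fold change of 0.35 ± 0.09 (SE), or 1.28 times scramble (95% interval 1.13 to 1.44; DESeq2 adjusted p = 0.000841). For shRNA 2 the authors' deposited table gives 0.90 ± 0.09 (SE), or 1.86 times scramble (95% interval 1.65 to 2.10; DESeq2 adjusted p = 1.19e-21). The shRNA 2 value exceeded the shRNA 1 value by 0.55 ± 0.13 (SE) in a two-sided z test (Benjamini-Hochberg adjusted p = 0.000182), a test whose SE is too large because scramble is shared.

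SNHG29 (chromosome 17, 16438822 to 16478678, plus strand, GRCh38), named LRRC75A-AS1 in GENCODE 29 and holding SNORD49A, SNORD49B and SNORD65, was the most abundant snoRNA host. Its reconstructed means were 6950 normalised reads with shRNA 1, 8869 with shRNA 2 and 4881 in scramble, so both hairpin arms lay above scramble. In the authors' deposited tables its log2 fold change was 0.51 ± 0.11 (SE; DESeq2 adjusted p = 5.33e-05) with shRNA 1 and 0.86 ± 0.11 (DESeq2 adjusted p = 2.06e-13) with shRNA 2. The difference of 0.35 ± 0.16 (SE) between the hairpins did not pass the z test (adjusted p = 0.0805).

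SNHG8 (chromosome 4, 118278709 to 118279823), host of SNORA24, had reconstructed means of 1433 normalised reads with shRNA 1, 2688 with shRNA 2 and 1539 in scramble. Only the shRNA 2 mean stood apart. The authors' deposited tables give log2 fold changes of -0.10 ± 0.12 (SE; DESeq2 adjusted p = 0.620) with shRNA 1 and 0.80 ± 0.12 (DESeq2 adjusted p = 3.3e-10) with shRNA 2. The difference was 0.91 ± 0.17 (SE; z test adjusted p = 1.63e-06). SNHG32 (C6orf48 in GENCODE 29), host of SNORD48 and SNORD52, had reconstructed means of 2140, 3095 and 1834 normalised reads with shRNA 1, shRNA 2 and scramble in that order. Its log2 fold change in the authors' deposited tables was 0.22 ± 0.11 (SE) without passing for shRNA 1 and 0.75 ± 0.11 (DESeq2 adjusted p = 8.49e-11) for shRNA 2.

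SNHG5, host of SNORD50A and SNORD50B, had log2 fold changes of -0.19 ± 0.10 (SE; not called) with shRNA 1 and 0.36 ± 0.10 (DESeq2 adjusted p = 0.00141) with shRNA 2 in the authors' deposited tables. SNHG19, a short host of SNORD60, had -0.30 ± 0.15 (SE; not called) and 0.37 ± 0.15 (DESeq2 adjusted p = 0.0426) in the same order. SNHG7, with SNORA17A and SNORA17B, had 0.27 ± 0.14 (SE; not called) and 0.42 ± 0.14 (DESeq2 adjusted p = 0.00908), per the authors' deposited tables. For SNHG5 and SNHG19 the hairpins differed in the z test, by 0.55 ± 0.14 (adjusted p = 0.000648) and 0.67 ± 0.21 (SE; adjusted p = 0.00825), while the difference of 0.14 for SNHG7, with a 95% interval of -0.23 to 0.52, did not pass.

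SNHG6 (chromosome 8, 66921684 to 66926398), host of SNORD87, was the 1 snoRNA host that fell. It had reconstructed means of 1824 normalised reads with shRNA 1, 2920 with shRNA 2 and 2732 in scramble, so the shRNA 1 arm was low. Its log2 fold change was -0.58 ± 0.11 (SE) with shRNA 1, a ratio of 0.668 (95% interval 0.578 to 0.771; DESeq2 adjusted p = 7.75e-07), in the authors' deposited table. With shRNA 2 the authors' deposited table gives 0.10 ± 0.11 (SE; DESeq2 adjusted p = 0.577), and the hairpins differed by 0.68 ± 0.15 (z test adjusted p = 6.46e-05).

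The other 13 hosts passed in neither comparison. The authors' deposited tables put the abundant SNHG1, the host of 9 snoRNAs, at -0.12 ± 0.11 (SE) with shRNA 1 and -0.10 ± 0.11 with shRNA 2, with ratio intervals of 0.790 to 1.08 and 0.802 to 1.09. A rise of the size seen for GAS5 with shRNA 2 lies outside both intervals. SNHG16, host of SNORD1A, SNORD1B and SNORD1C, had -0.09 ± 0.12 and -0.06 ± 0.12, and SNHG12 had -0.16 ± 0.13 and -0.06 ± 0.13 (SE) in the authors' deposited tables. SNHG3, host of the SNORA73 pair that takes part in ribosomal RNA processing, had 0.03 ± 0.25 and 0.0074 ± 0.25 (SE), a far less certain value than its mean of 2781 normalised reads would give. SNHG20 had 0.25 ± 0.13 and -0.19 ± 0.13, SNHG17 0.24 ± 0.14 and 0.17 ± 0.14, and SNHG15 0.37 ± 0.16 and 0.26 ± 0.17 (SE) in the authors' deposited tables. The rarer SNHG11, SNHG21, SNHG9, SNHG18, SNHG25 and SNHG31 had SEs between 0.22 and 0.44, at which moderate changes were not detectable.

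**Figure D3:**
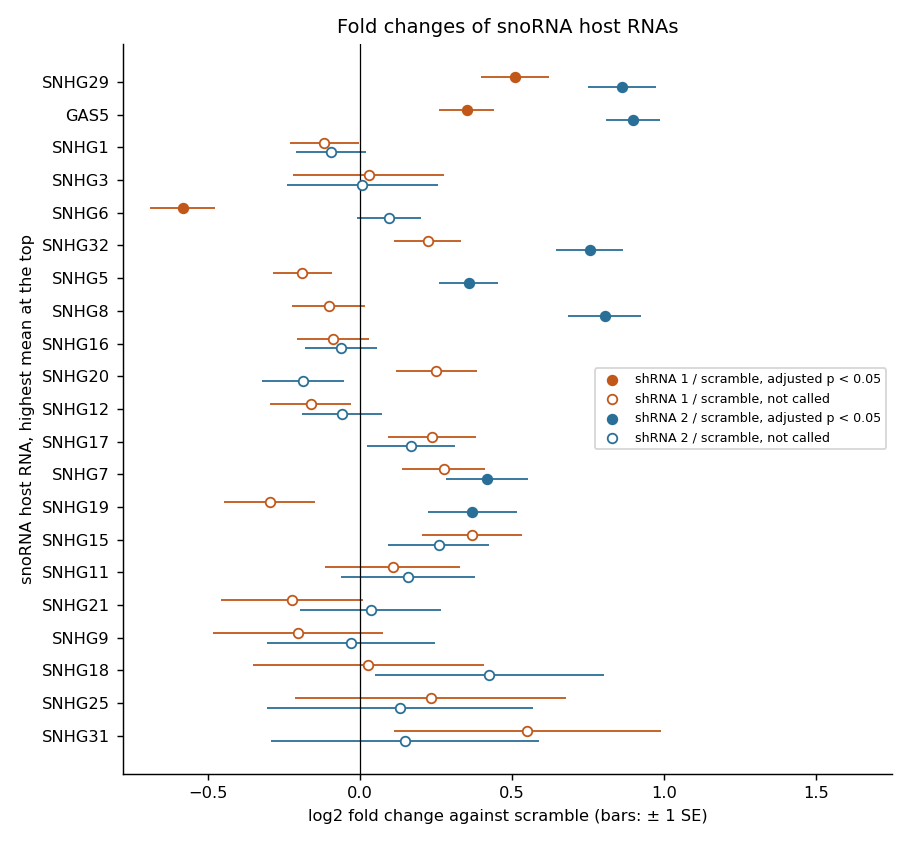
Log2 fold change against scramble (horizontal axis, bars ± 1 SE) of the 21 snoRNA hosts, ordered from the highest mean at the top, with shRNA 1 in orange above shRNA 2 in blue. Filled points are called at a DESeq2 adjusted p below 0.05 in the authors' deposited tables; GAS5 and SNHG29 are filled in both colours, and SNHG6 is the 1 filled point left of 0.

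The hosts with an annotated TOP-like start did not move as a block. Of 13, 5 rose and 0 fell with shRNA 2, and of 8 without such a start, 2 rose and 0 fell, per the authors' deposited tables. Among all 2208 genes with a TOP-like start and a mean of 50 or more, 17.7% were higher and 22.2% lower with shRNA 2. SNHG1, SNHG16 and SNHG12 have the tract in the sequences above and passed in neither comparison.

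Protein-coding snoRNA hosts were set beside them. In the authors' deposited tables, shRNA 2 gave 26 higher and 13 lower of 56 (median 0.16) and shRNA 1 gave 13 higher and 7 lower (median 0.10). Ribosomal protein genes and the rest were counted apart, with no test between them. Of 24 ribosomal protein hosts, 21 were higher and 0 lower with shRNA 2 (median 0.43), and 11 were higher and 0 lower with shRNA 1 (median 0.18). RPL13 was at 0.27 ± 0.07 with shRNA 1 and 0.48 ± 0.07 (SE) with shRNA 2, and RPS3 at 0.28 ± 0.08 and 0.51 ± 0.08 (SE), in the authors' deposited tables. Reads of ribosomal protein genes are shared with many processed pseudogenes, which makes their levels uncertain. Of 32 other hosts, 5 were higher and 13 lower with shRNA 2 (median -0.19), and 2 were higher and 7 lower with shRNA 1 (median -0.02). Among these 32, 28.1% were called with shRNA 1, against 27.0% of all genes with means of at least 50. With shRNA 2 the shares were 15.6% higher and 40.6% lower, against 13.3% and 23.1%. The median mean of the 32 was 6138, and abundant genes were called more often. At 1000 and above, 39.4% of all genes were called with shRNA 1, and 17.1% were higher and 29.8% lower with shRNA 2. The 5 that were higher with shRNA 2, named after their values were seen, were EEF2, TPT1, EIF4A2, EEF1B2 and RACK1, with EEF2, a translation elongation factor gene, at 0.47 ± 0.07 (SE) in the authors' deposited table. ATP5F1B, a subunit of mitochondrial ATP synthase, was at -0.39 ± 0.07 with shRNA 1 and -0.53 ± 0.07 (SE) with shRNA 2, and the chaperone HSPA8 at -0.27 ± 0.07 and -0.34 ± 0.07 (SE), in the authors' deposited tables.

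Counted in both directions together, the machinery that assembles snoRNAs and degrades their hosts gave smaller shares of calls than all genes with a mean of 50 or more. Of those genes, 27.0% and 36.4% were called. Of 18 snoRNP proteins and assembly factors, 1 was higher and 2 lower with shRNA 1 and 0 were higher and 2 lower with shRNA 2, per the authors' deposited tables, with median log2 fold changes of -0.07 and -0.09. RUVBL2, a helicase of snoRNP assembly, was at 0.45 ± 0.10 with shRNA 1 and -0.49 ± 0.11 (SE) with shRNA 2, called in both, while the methyltransferase FBL, at 0.16 ± 0.08 and -0.12 ± 0.08 (SE), was called in neither of the authors' deposited tables. Of 21 nonsense-mediated decay factors, 2 were higher and 2 lower with shRNA 1 and 1 was higher and 5 lower with shRNA 2, with medians of 0.02 and 0.0084. The central helicase UPF1 was at 0.15 ± 0.08 and -0.15 ± 0.08 (SE), called in neither of the authors' deposited tables, and SMG9 at 0.35 ± 0.14 and -0.60 ± 0.14 (SE), called in both. Of 23 factors of the nuclear RNA exosome and its adaptors, 1 was higher and 3 lower with shRNA 1 and 0 were higher and 6 lower with shRNA 2, with medians of 0.03 and -0.11. Its nuclease DIS3 was at -0.26 ± 0.14 (SE; not called) with shRNA 1 and -0.42 ± 0.14 (called) with shRNA 2 in the authors' deposited tables. Counted alone, lower calls with shRNA 2 were 11.1% of snoRNP, 23.8% of decay and 26.1% of exosome factors, against 23.1% of all genes. Single genes changed strongly with shRNA 1 alone, 2 of them named after their values were seen. The snoRNP protein gene NOP10 was at -2.03 ± 0.15 with shRNA 1 and 0.05 ± 0.14 (SE; not called) with shRNA 2. EXOSC3 of the exosome was at -1.41 ± 0.18 and -0.19 ± 0.17 (SE; not called).

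By the authors' deposited tables, 4 of the 9 microRNA hosts rose with shRNA 1 and 0 fell, whereas 2 rose with shRNA 2 and 1 fell. Their median log2 fold changes were 0.15 and 0.20. The rises were 44.4% and 22.2% of so few hosts, against 10.6% and 13.3% of all genes with a mean of 50 or more. MIR210HG (chromosome 11), the host of miR-210, a microRNA known for its induction by hypoxia, had reconstructed means of 529 normalised reads with shRNA 1, 169 with shRNA 2 and 151 in scramble. The shRNA 1 arm alone was high. Its log2 fold change with shRNA 1 was 1.81 ± 0.21 (SE) in the authors' deposited table, or 3.51 times scramble (95% interval 2.63 to 4.68; DESeq2 adjusted p = 7.94e-16). With shRNA 2 the authors' deposited table gives 0.17 ± 0.22 (SE; DESeq2 adjusted p = 0.662). The difference, shRNA 2 minus shRNA 1, was -1.65 ± 0.30 (SE; z test adjusted p = 1.2e-06), the lowest p of any of the 269 RNAs.

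MIR663AHG (chromosome 20) showed the same order of arms, with reconstructed means of 639 normalised reads with shRNA 1, 256 with shRNA 2 and 221 in scramble. Its log2 fold changes in the authors' deposited tables were 1.53 ± 0.20 (SE; DESeq2 adjusted p = 5.37e-13) with shRNA 1 and 0.21 ± 0.20 (DESeq2 adjusted p = 0.513) with shRNA 2. The difference was -1.32 ± 0.28 (SE; z test adjusted p = 4.04e-05).

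MIR34AHG (chromosome 1), host of the p53-induced miR-34a, was higher with each hairpin. Its reconstructed means were 421 normalised reads with shRNA 1, 576 with shRNA 2 and 251 in scramble. The authors' deposited tables give log2 fold changes of 0.74 ± 0.19 (SE; DESeq2 adjusted p = 0.00105) with shRNA 1 and 1.20 ± 0.19 (DESeq2 adjusted p = 7.74e-09) with shRNA 2, and the difference of 0.45 ± 0.27 did not pass the z test. MIR4435-2HG rose less, to reconstructed means of 2444 and 2464 normalised reads with shRNA 1 and shRNA 2, against 1981 in scramble. Its log2 fold changes were 0.30 ± 0.10 (SE; DESeq2 adjusted p = 0.0156) and 0.31 ± 0.10 (DESeq2 adjusted p = 0.00911) in the authors' deposited tables. A near-identical copy of this locus lies elsewhere on chromosome 2, so the division of reads between the copies is uncertain.

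MIR17HG (chromosome 13), the polycistronic host of 6 microRNA hairpins and a known MYC target, had reconstructed means of 97.2 normalised reads with shRNA 1, 43.4 with shRNA 2 and 105 in scramble. The shRNA 2 arm alone was low. The authors' deposited tables give log2 fold changes of -0.12 ± 0.36 (SE; DESeq2 adjusted p = 0.877) with shRNA 1 and -1.28 ± 0.38 (DESeq2 adjusted p = 0.00409) with shRNA 2, and the difference of -1.16 ± 0.53 missed the threshold of the z test (adjusted p = 0.0875). MIR3142HG, which holds the NF-kB-induced miR-146a, had 0.03 ± 0.20 and 0.20 ± 0.20 (SE) and was called in neither of the authors' deposited tables. MIR600HG, MIR22HG and MIR4453HG were also called in neither. Of 16 proteins of microRNA processing, 2 were higher and 2 lower with shRNA 1 and 1 was higher and 7 lower with shRNA 2, with medians of -0.0040 and -0.23. With shRNA 1 the 4 called are 25% of the list, and with shRNA 2 the 8 called are 50%. Among all genes with a mean of 50 or more, 27.0% and 36.4% were called. The median mean of the list was 1795, and among all genes at 1000 and above 39.4% and 46.9% were called. Against these more abundant genes, the 50% is near the background and the 25% under it, counted in both directions together. Lower calls alone were 43.8% of the list with shRNA 2, against 23.1% of all genes and 29.8% at 1000 and above. The largest fall there was DDX17 at -1.40 ± 0.08, and the 1 higher gene was TNRC6A at 0.81 ± 0.11 (SE). Both were named after their values were seen. RAN, which drives nuclear transport, was at 0.23 ± 0.08 with shRNA 1 and -0.32 ± 0.08 (SE) with shRNA 2, called in both of the authors' deposited tables. The Argonaute gene AGO4 was at -0.38 ± 0.15 and -0.59 ± 0.15 (SE), called in both of the authors' deposited tables.

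**Figure D4:**
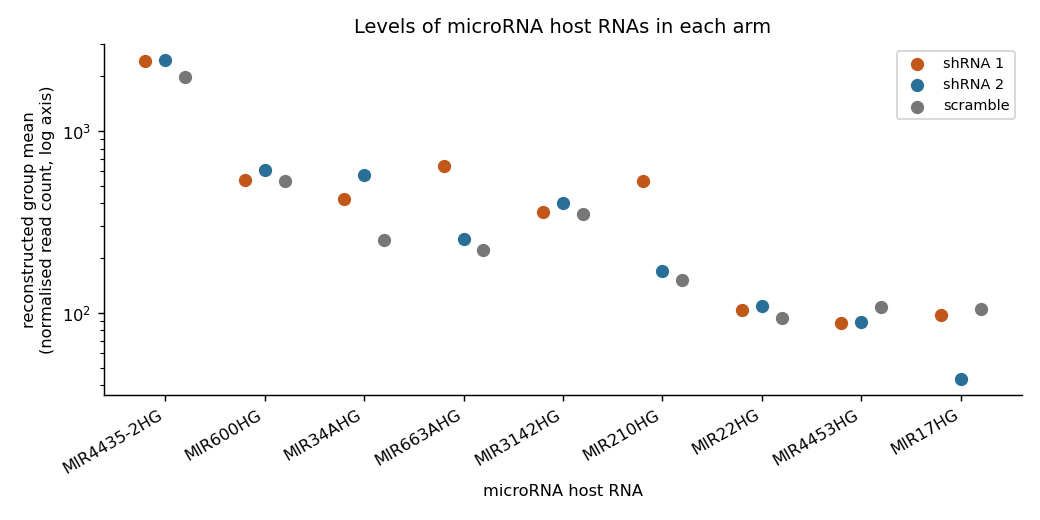
Reconstructed mean in normalised read counts (vertical log axis) of the 9 microRNA hosts in the shRNA 1 (orange), shRNA 2 (blue) and scramble (grey) arms, ordered by overall mean. MIR210HG and MIR663AHG stand out in the shRNA 1 arm (529 and 639), and MIR17HG is low in the shRNA 2 arm (43.4); no error bars are drawn because the tables hold no single libraries.

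MALAT1 and NEAT1 were the most abundant of the 269, with means of 44974 and 36152 normalised reads in the authors' deposited tables, and together made up 0.324% of the summed means of all genes. MALAT1 had reconstructed means of 39435 with shRNA 1, 52442 with shRNA 2 and 43044 in scramble. Its log2 fold changes in the authors' deposited tables were -0.13 ± 0.27 and 0.28 ± 0.27 (SE), neither called. NEAT1 had reconstructed means of 27616 with shRNA 1, 42663 with shRNA 2 and 38178 in scramble, and log2 fold changes of -0.47 ± 0.25 (DESeq2 adjusted p = 0.166) and 0.16 ± 0.25 (SE; DESeq2 adjusted p = 0.715) in the authors' deposited tables. These SEs are wide for the abundance, since the median SE was 0.106 over 5147 genes with a mean of 1000 or more. The dispersion, the variance between libraries beyond counting noise, was 0.0354 for MALAT1, 0.0292 for NEAT1 and 0.0293 for SNHG3, against a median of 0.00485 over those genes. Both RNAs are largely nuclear. Whether a single library carries this spread cannot be read from the tables.

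Of 16 tested paraspeckle proteins out of 17 listed, 1 was higher and 5 lower with shRNA 1 and 0 were higher and 7 lower with shRNA 2, per the authors' deposited tables, with median log2 fold changes of -0.09 and -0.18. The lower ones were 31.2% and 43.8% of the list, against 16.4% and 23.1% of all genes with a mean of 50 or more. The median mean of the list was 4535, and at 1000 and above 23.4% and 29.8% of all genes were lower. DAZAP1 was at -0.31 ± 0.08 and -0.64 ± 0.08 (SE), called in both, and CPSF6 at 0.18 ± 0.10 (not called) and -0.65 ± 0.10 (SE; called) in the authors' deposited tables. PVT1, the neighbour of MYC on chromosome 8, had reconstructed means of 869 normalised reads with shRNA 1, 1122 with shRNA 2 and 757 in scramble. It rose with shRNA 2 at 0.57 ± 0.15 (SE; DESeq2 adjusted p = 0.000845) and was not called with shRNA 1, at 0.20 ± 0.15 (DESeq2 adjusted p = 0.384), in the authors' deposited tables.

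Levels of different RNAs were compared per kilobase of annotated exon, with the exons of all annotated transcripts of a gene joined. On that scale MALAT1 had 5094 normalised reads per kilobase, SNHG8 2044, SNHG6 1998, SNHG29 and SNHG19 1836 each, NEAT1 1588 and GAS5 1555. Short hosts such as SNHG8 and SNHG19 stood near the long NEAT1 on that scale, although their read counts were far lower. Where only short transcripts of a gene were captured, the joined length understates its level. Which transcripts of NEAT1 and MALAT1 the poly(A)-selected libraries captured is not known, so this closeness may come from the length used.

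Of the 93 LINC RNAs, 9 were higher and 2 lower with shRNA 1, and 20 were higher and 6 lower with shRNA 2, per the authors' deposited tables, with median log2 fold changes of 0.12 and 0.23. The higher ones were 9.68% and 21.5%, against 10.6% and 13.3% of all genes with a mean of 50 or more. The lower ones were 2.15% and 6.45%, against 16.4% and 23.1%. With shRNA 1 the higher share was thus near the background. LINC00205 (chromosome 21) had reconstructed means of 349 normalised reads with shRNA 1, 340 with shRNA 2 and 117 in scramble. Both hairpin arms were high, with log2 fold changes of 1.58 ± 0.23 (SE; DESeq2 adjusted p = 1.72e-10) and 1.54 ± 0.23 (DESeq2 adjusted p = 2.86e-10) in the authors' deposited tables. Its start lies 152 bases from that of POFUT2, a protein O-fucosyltransferase, which was at 0.73 ± 0.13 with shRNA 1 (called) and -0.29 ± 0.13 (SE; not called) with shRNA 2 in the authors' deposited tables. This neighbour was chosen after its values were seen.

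LINC00880 and LINC01993 also rose with each hairpin. LINC00880 had reconstructed means of 246 and 197 normalised reads with shRNA 1 and shRNA 2, against 101 in scramble, and its log2 fold changes in the authors' deposited tables were 1.29 ± 0.27 and 0.97 ± 0.27 (SE). LINC01993, a rare RNA, had reconstructed means of 69.4 and 69.3 with shRNA 1 and shRNA 2, against 24.4 in scramble, where it lay under the limit of 50. LINC01993 would not have reached that limit without the hairpin arms. Its calls thus describe an RNA that the limit kept because it was high there. LINC00893, on the X chromosome, was at 0.63 ± 0.24 and 0.86 ± 0.24 (SE), also called in both of the authors' deposited tables.

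Other LINC RNAs were called with shRNA 1 alone. LINC02363 had a reconstructed mean of 121 normalised reads with shRNA 1 and of 43.0 with shRNA 2, against 25.7 in scramble, and a log2 fold change of 2.24 ± 0.44 (SE; DESeq2 adjusted p = 7.54e-06) with shRNA 1 in the authors' deposited table. LINC02363 would not have reached the mean of 50 without the shRNA 1 arm, so its call describes an RNA that the limit kept because it was high there. In the authors' deposited tables LINC01252 was at 1.47 ± 0.36 with shRNA 1 and, without passing, at 0.85 ± 0.36 (SE) with shRNA 2. LINC00861 fell to a reconstructed mean of 101 with shRNA 1 and was at 227 with shRNA 2, against 289 in scramble. Its log2 fold changes of -1.52 ± 0.32 (DESeq2 adjusted p = 2.98e-05) and -0.35 ± 0.31 (SE; DESeq2 adjusted p = 0.464) in the authors' deposited tables differed in the z test (adjusted p = 0.0349). The authors' deposited table puts LINC00324, the other LINC RNA that fell with shRNA 1, at -1.04 ± 0.37 (SE).

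A further group was called with shRNA 2 alone. LINC00930 had reconstructed means of 39.8 normalised reads with shRNA 1, 163 with shRNA 2 and 32.3 in scramble. Its log2 fold change was 2.34 ± 0.43 (SE; DESeq2 adjusted p = 5.97e-07) with shRNA 2 and 0.30 ± 0.45 (not called) with shRNA 1 in the authors' deposited tables. LINC00930 would not have reached the mean of 50 without the shRNA 2 arm. Also higher with shRNA 2 in the authors' deposited table were LINC00672 at 1.48 ± 0.31, LINC02694 at 1.22 ± 0.44 and LINC01126 at 1.13 ± 0.39 (SE). Lower with shRNA 2 were LINC01670 at -1.90 ± 0.41, LINC01529 at -1.44 ± 0.50 and LINC02528 at -1.005 ± 0.27 (SE) in the authors' deposited table. LINC01670 had reconstructed means of 98.6 with shRNA 1, 27.4 with shRNA 2 and 102 in scramble, so that only the shRNA 2 arm was low.

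Of the 143 -AS1 RNAs, 14 were higher and 5 lower with shRNA 1, and 31 were higher and 6 lower with shRNA 2, per the authors' deposited tables, with median log2 fold changes of 0.10 and 0.22. The higher ones were 9.79% and 21.7%, against 10.6% and 13.3% of all genes with a mean of 50 or more. Rises with shRNA 1 were thus near the background. The 5 and 6 lower ones were smaller shares than the 16.4% and 23.1% of all genes. Levels were not matched here. The most abundant -AS1 RNA was OIP5-AS1, a conserved RNA also known as Cyrano. Its reconstructed means were 2971 normalised reads with shRNA 1, 3451 with shRNA 2 and 4051 in scramble. It fell with shRNA 1 at -0.45 ± 0.10 (SE; DESeq2 adjusted p = 7.35e-05) and was at -0.23 ± 0.10 (DESeq2 adjusted p = 0.0623) with shRNA 2 in the authors' deposited tables. FEZF1-AS1 had reconstructed means of 3145 with shRNA 1, 1913 with shRNA 2 and 1997 in scramble. It rose with shRNA 1 at 0.65 ± 0.10 (SE; DESeq2 adjusted p = 8.38e-09) and was at -0.06 ± 0.10 with shRNA 2 in the authors' deposited tables, and the difference of -0.72 ± 0.15 passed the z test (adjusted p = 1.68e-05).

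TNRC6C-AS1 had reconstructed means of 1041 normalised reads with shRNA 1, 1901 with shRNA 2 and 887 in scramble. It rose with shRNA 2 at 1.10 ± 0.12 (SE; DESeq2 adjusted p = 4.62e-19) and was not called with shRNA 1, at 0.23 ± 0.12, in the authors' deposited tables. The difference was 0.87 ± 0.17 (SE; z test adjusted p = 3.57e-06). ZEB1-AS1, which starts beside the gene of the transcription factor ZEB1, rose with shRNA 1 at 0.91 ± 0.21 (SE; DESeq2 adjusted p = 0.000201) and was at -0.07 ± 0.21 with shRNA 2 in the authors' deposited tables. TMEM161B-AS1 fell with shRNA 1 at -0.60 ± 0.19 (SE; DESeq2 adjusted p = 0.00829) and was at 0.41 ± 0.18 (DESeq2 adjusted p = 0.0723) with shRNA 2 in the authors' deposited tables. PRR29-AS1 at 1.56 ± 0.47 and RAB11B-AS1 at 0.87 ± 0.34 rose with shRNA 1, and ZNF337-AS1 at -0.75 ± 0.27 (SE) fell, in the authors' deposited table.

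Several -AS1 RNAs were called with each hairpin. The higher ones were ASB16-AS1, PAX8-AS1, THUMPD3-AS1, C1RL-AS1, PCED1B-AS1, NAPA-AS1, RALY-AS1 and SRP14-AS1, and the lower ones PABPC4-AS1 and PSMB8-AS1. SRP14-AS1 was at 0.80 ± 0.29 with shRNA 1 and 0.89 ± 0.29 with shRNA 2, and PSMB8-AS1 at -0.65 ± 0.26 and -0.64 ± 0.26 (SE), in the authors' deposited tables. ASB16-AS1 had reconstructed means of 1079 and 1385 normalised reads with shRNA 1 and shRNA 2, against 859 in scramble.

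Of the 143, 121 could be paired with a measured gene of the same name, all on the opposite strand, and in 100 of these the annotated exons overlapped. The sources used here do not say whether the counting used strand, so reads of an overlapping pair cannot be told apart and their values may share reads. Across the 121 pairs, the log2 fold changes of the -AS1 RNA and its sense gene had a Pearson r of 0.13 with shRNA 1 and 0.42 with shRNA 2, computed from the authors' deposited tables. Restricted to the 21 pairs without exon overlap, r was 0.15 and 0.34. These are descriptions across genes of the same libraries, not tests. With shRNA 1, 19 of the 121 -AS1 RNAs and 38 of their sense genes were called, and with shRNA 2, 32 and 51. Among all genes with a mean of 50 or more, 27.0% and 36.4% were called. With shRNA 2, both partners were called in 17 pairs: 7 had both higher, 5 had both lower, 5 had the -AS1 RNA higher and the sense gene lower, and 0 had the reverse. With shRNA 1, both partners were called in 6 pairs: 3 had both higher, 1 had both lower and 2 had the -AS1 RNA higher with the sense gene lower. How many such pairs the totals of called partners alone would give was not tested. Few of the 143 -AS1 RNAs fell, 5 with shRNA 1 and 6 with shRNA 2, which leaves little room for the reverse.

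Of the pairs in which both fell with shRNA 2, VIM-AS1 and the intermediate filament gene VIM had the largest fall of a sense gene. VIM-AS1 had reconstructed means of 126 normalised reads with shRNA 1, 42.2 with shRNA 2 and 127 in scramble. Its log2 fold changes were -0.0047 ± 0.35 and -1.59 ± 0.37 (SE; DESeq2 adjusted p = 0.000129 for shRNA 2), and those of VIM -0.03 ± 0.13 and -2.26 ± 0.13 (SE), in the authors' deposited tables. Their exons overlap over 641 bases. TMPO-AS1 was at -1.92 ± 0.78 (SE; DESeq2 adjusted p = 0.0490) and TMPO, the lamina-associated polypeptide gene, at -1.31 ± 0.10 with shRNA 2 in the authors' deposited table. The SE of TMPO-AS1 was far wider than the median of 0.196 over the 88 RNAs with means of 200 to 1000, and its dispersion was 0.288 against at most 0.0426 among the others. ST3GAL6-AS1 at -1.47 ± 0.42 and UBL7-AS1 at -1.09 ± 0.37 (SE) fell beside ST3GAL6, a sialyltransferase gene, at -0.63 ± 0.12 and UBL7 at -0.43 ± 0.12 with shRNA 2 in the authors' deposited table. PABPC4-AS1 was at -1.34 ± 0.42 with shRNA 1 and -1.21 ± 0.41 with shRNA 2, and PABPC4, a cytoplasmic poly(A)-binding protein gene, at -0.43 ± 0.08 and -0.20 ± 0.08 (SE), in the authors' deposited tables.

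Pairs also moved apart. TNRC6C, a scaffold protein gene of microRNA silencing, was at 0.42 ± 0.16 with shRNA 1 and -0.73 ± 0.17 (SE; called in both) with shRNA 2 in the authors' deposited tables, while TNRC6C-AS1 rose with shRNA 2. The exons of this pair overlap over 1438 bases. Another 3 such pairs with shRNA 2 were named after their values were seen. In the authors' deposited table for shRNA 2, TP73-AS1 was at 0.56 ± 0.20 beside the p53 family gene TP73 at -2.64 ± 0.23 (SE). PAXIP1-AS1 was at 0.53 ± 0.16 beside PAXIP1 at -0.49 ± 0.12, and NDUFV2-AS1 at 0.88 ± 0.30 beside NDUFV2, a subunit gene of respiratory complex I, at -0.57 ± 0.09 (SE), in the authors' deposited table for shRNA 2. With shRNA 1, NAPA-AS1 at 0.81 ± 0.24 and NAPA at -0.35 ± 0.10, and RAB11B-AS1 at 0.87 ± 0.34 and RAB11B at -0.33 ± 0.09 (SE), were the 2 pairs that moved apart in the authors' deposited table.

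**Figure D5:**
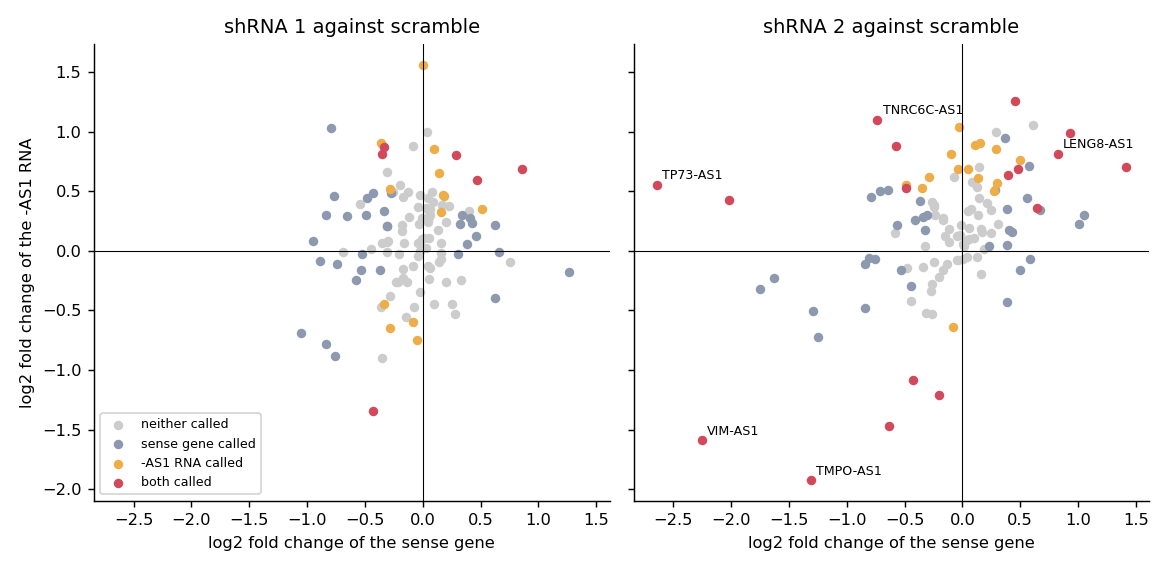
Log2 fold change of the -AS1 RNA (vertical axis) against that of its sense gene (horizontal axis) for 121 pairs, with shRNA 1 on the left and shRNA 2 on the right, from the authors' deposited tables. Red points have both partners called at a DESeq2 adjusted p below 0.05 (6 pairs with shRNA 1, 17 with shRNA 2), with 5 red points at upper left and 5 at lower left with shRNA 2.

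The hairpins were also compared directly, by the two-sided z test on the difference of log2 fold changes with Benjamini-Hochberg adjustment over 12977 genes. Of all these genes 27.0% differed, 11.5% with the shRNA 2 value above and 15.5% below. Of the 269 noncoding RNAs, 26 differed, 19 with the shRNA 2 value above that of shRNA 1 and 7 below. These shares lie under those of all genes in both directions, with levels not matched. Above were SNHG8, SNHG6, GAS5, SNHG5, SNHG32 and SNHG19 among the snoRNA hosts. Below were MIR210HG and MIR663AHG among the microRNA hosts, with FEZF1-AS1, ZEB1-AS1, VIM-AS1, LINC02528 and LINC01670. With an SE rebuilt without the scramble term, 63 differed, 46 above and 17 below. For 243 of the 269 the difference did not pass, which does not show that the hairpins acted alike on them.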

How the data were processed

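Poly(A)-selected RNA of MM1.S cells was sequenced from 2 libraries in each of 3 arms, shRNA 1, shRNA 2 and scramble, grouped by the shRNA that the labels give. The submitters' processing notes name Salmon 0.12.0, which quantifies transcripts, and DESeq2 1.24.0, with GRCh38 (hg38) as the genome build. Settings, annotation, read length and strand use are not stated in the sources used here. Salmon assigns reads to transcripts by a model, so levels of copies and overlapping genes are estimates.

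The 2 tables the authors deposited list 33095 genes each. Per the file headers, the first measurement is a signal, the mean of normalised read counts (baseMean), which was identical in both tables. The fold changes and SEs are on the log2 scale as deposited, the deposited Wald score is their quotient, and each p-value, raw or adjusted, is the one the authors deposited. Adjusted p-values exist for 14488 genes with shRNA 1 and 17054 with shRNA 2, including all 269 RNAs described here in both. A gene was called at an adjusted p below 0.05. Depth per library is unknown, so no interval from counting was made, and 95% intervals of ratios come from the deposited SE.

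Fold changes are shRNA over scramble. This was checked on the dispersions of 1537 genes, solved separately from the tables, whose median absolute log ratio between tables was 0.00595 as coded, against 0.0795 to 0.158 with a sign turned. From the means, fold changes and SEs of both tables, the mean of each arm and the dispersion were reconstructed, and values so obtained are named reconstructed means. The difference between hairpins was tested by a two-sided z, that is, the difference of log2 fold changes divided by the square root of the sum of both squared SEs, adjusted over 12977 genes with a mean of 50 or more. Both calculations were run on simulated counts whose SEs came from known dispersions, by the formula that the reconstruction inverts. Recovery of the arm means and dispersions was therefore fixed in advance, and how the deposited SEs behave was not tested. Of 200 changed genes, the z test with the summed SE recovered 68.5% with 0 false calls, and that with the rebuilt SE 82.5% with 7. Python 3.11.15, numpy 2.4.6, pandas 2.3.3 and scipy 1.17.1 were used.

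The members and the 6 gene lists (protein-coding snoRNA hosts, snoRNP proteins and assembly factors, nonsense-mediated decay factors, paraspeckle proteins, nuclear RNA exosome, microRNA processing) were chosen with earlier results of these data known. Named genes were GAS5, MALAT1, NEAT1, PVT1, every SNHG and microRNA host, and the 5 highest means. Added to these were up to 8 higher and 8 lower LINC and -AS1 RNAs with the largest change in each comparison, and those passing in both. The rule also took the 6 lowest p of the hairpin difference, the 3 genes on either side of the mean of 50, the sense partners and up to 4 genes per list. Exceptions are marked, and a few genes are not reported here. Coordinates, exons and transcript starts are from GENCODE 29, and microRNA sequences and snoRNAs within gene bodies from RefSeq. Alternatives varied the adjusted p threshold, the mean limit, the low-gene filter, the zero point, a minimum fold change and the SE of the difference.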

Additional observations from a re-analysis of the deposited data

Results flagged for a closer look

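In 26 of the 269 RNAs the log2 fold changes of the hairpins differed in the two-sided z test, computed from the authors' deposited tables. Of all 12977 genes with a mean of 50 or more, 27.0% differed, so such differences were rarer among these RNAs. Levels were not matched in that comparison. Each value here is the log2 fold change with shRNA 2 minus that with shRNA 1. The scramble libraries are common to both, and the libraries labelled shRNA 2 did not show a fall of IRF3. Among snoRNA hosts the differences were 0.91 for SNHG8, 0.68 for SNHG6, 0.67 for SNHG19, 0.55 for GAS5, 0.55 for SNHG5 and 0.53 for SNHG32. For microRNA hosts they were -1.65 for MIR210HG and -1.32 for MIR663AHG. In the -AS1 RNAs the shRNA 2 value lay above by 1.30 for MAP3K14-AS1, 1.05 for AFAP1-AS1, 1.01 for TMEM161B-AS1, 0.87 for TNRC6C-AS1, 0.77 for VPS9D1-AS1, 0.70 for TMEM147-AS1, 0.53 for THAP9-AS1 and 0.53 for TRG-AS1. Negative differences were found for VIM-AS1 at -1.58, ZEB1-AS1 at -0.98 and FEZF1-AS1 at -0.72. LINC RNAs differed by 2.04 for LINC00930, 1.17 for LINC00861, 1.12 for LINC01238, 0.78 for LINC01184 and 0.66 for LINC02210, and by -1.85 for LINC01670 and -1.27 for LINC02528. No explanation of these differences was tested.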

How the results depend on the processing

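At an adjusted p of 0.01 in place of 0.05, the noncoding RNAs called numbered 22 (17 higher, 5 lower) with shRNA 1 and 41 (35 higher, 6 lower) with shRNA 2, against 37 and 74 in the report. The RNAs that differed between hairpins numbered 63 with the SE rebuilt without the scramble term, against 26. Under the other alternatives run (an adjusted p of 0.1, a log2 fold change of at least 0.5, no low-gene filter, fold changes recentred on the median gene, and means of 100 or 20) the counts were 27 to 48 with shRNA 1 and 58 to 87 with shRNA 2. For the hairpin difference the count was 19 at an adjusted p of 0.01, 22 with adjustment over all genes, 23 at a mean of 100 or more and 26 with an absolute difference of at least 0.5. No other alternative was run for it. Higher RNAs outnumbered lower ones in each of these settings for both hairpins against scramble. The shares of all genes under these alternatives were not set beside them. In the report, 10.8% of the RNAs were higher with shRNA 1, against 10.6% of all genes with a mean of 50 or more. Lower were 2.97%, against 16.4%. With shRNA 1 this order of counts is thus not a larger share of rises than the background. Recentred on the median gene, 32 were higher and 7 lower with shRNA 1 and 64 were higher and 10 lower with shRNA 2. No paired analysis was possible because the tables used here hold no values of single libraries, and for the same reason no library was left out in turn. With 2 libraries an arm, the SE limits detection to large changes in RNAs of low mean.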
